A study of Homo sapiens with 8 samples.

Results

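The 300 genomic windows with the densest methylation peaks outside the MYCN locus were examined in 8 established neuroblastoma (NB) cell lines, to look for other amplified or densely methylated loci. The GRCh37 autosomes were cut into windows of 200 kb from the first base of each chromosome, and 11 windows around MYCN were removed. For each line the percent of a window's length under peaks, called peak cover here, was computed, and the 300 of 14404 windows with the highest maximum over the 8 lines were kept. They made up 2.08% of the length examined. The labels give CHP-902R, IMR-32, LA-N-2 and N206 as MYCN amplified (MNA), and SK-N-AS, CLB-GA, SJNB-1 and SH-SY5Y as not amplified (MYCN single copy). No treatment of the cultures is labelled, and each line is 1 sample, so a p-value between the groups measures the spread between lines only. MBD-seq sequences DNA fragments caught by a domain of the protein MBD2 that binds methylated CpG, and a peak is a stretch where a peak caller found more captured fragments than the background.

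DNA methylation in vertebrates sits mainly on the cytosines of CpG dinucleotides. MBD2 binds methylated CpGs, so CpG-rich methylated DNA, such as gene bodies near chromosome ends, is enriched in such libraries. A locus present in many copies also gives more fragments for the same methylation. NB is known for amplification of MYCN on the short arm of chromosome 2, for amplification or mutation of ALK on the same arm in some tumours and for gain of the long arm of chromosome 17, and IMR-32 is known for amplified DNA at the MEIS1 locus. DNA copy number was not measured in the data used here, and its part in any value that follows was not tested.

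Sequences from the windows are shown as examples of peaks of a single line and of shared peaks. Each is 200 bases of the GRCh37 plus strand, with every CpG in capitals. The first 2 are the middle of the highest-scoring peak that met no peak of another line, in 2 of the dense stretches described further on. They lie in an intron of ANTXR1 (chr2:69309521-69309720) and between HSD17B7 and CCDC190 (chr1:162792375-162792574). The last is the middle of an interval that peaks of all 8 lines shared, in coding sequence of MAST1 (chr19:12985114-12985313), in a window covered in every line.
IMR-32, ANTXR1 intron: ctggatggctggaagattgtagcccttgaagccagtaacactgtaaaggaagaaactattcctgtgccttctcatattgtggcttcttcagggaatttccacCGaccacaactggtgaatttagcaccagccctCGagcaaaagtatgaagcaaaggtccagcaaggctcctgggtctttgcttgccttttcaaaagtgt
LA-N-2, HSD17B7 to CCDC190: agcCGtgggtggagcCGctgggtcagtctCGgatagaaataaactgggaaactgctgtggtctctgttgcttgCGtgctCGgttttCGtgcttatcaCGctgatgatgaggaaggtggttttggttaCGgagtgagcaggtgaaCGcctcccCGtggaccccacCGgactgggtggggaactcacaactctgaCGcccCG
8 lines, MAST1: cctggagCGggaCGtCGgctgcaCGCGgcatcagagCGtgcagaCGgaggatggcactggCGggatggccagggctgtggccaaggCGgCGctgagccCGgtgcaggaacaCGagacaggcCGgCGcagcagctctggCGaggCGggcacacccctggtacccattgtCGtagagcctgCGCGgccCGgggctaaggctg
These 200 bases held 2, 13 and 20 CpGs, in that order. Over all sequences taken in this way, the 7 of a single line held 2 to 13 CpGs and the 6 shared by 6 or more lines held 8 to 26, so the ranges overlapped.

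The deposited lists held 70816 to 112412 peaks per line, and peaks covered 1.37% to 2.06% of the windows on average. The lists give no read numbers, and the study gives depth only as a range over the lines, so the depth behind a value is not known per line and no counting error is given. The MNA lists held 88496 to 112412 peaks and the single copy lists 70816 to 86079, so list length moved with the groups; its part in the values was not tested apart from the alternatives given at the end.

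Maximum cover ran from 31.95% for the first window to 9.82% for the last, with a median of 11.3%, against a median maximum of 2.43% over all 14404 windows. The windows were chosen by these values, which are therefore a description. The last 3 windows inside the limit were at INPP5A on 10q (9.83% in CLB-GA), TPCN2 on 11q (9.83% in IMR-32) and YEATS2 on 3q (9.82% in N206). The first 3 outside were at PITPNC1 on 17q (9.82% in IMR-32), TRIM37 on 17q (9.82% in IMR-32) and SNTG2 on 2p (9.81% in SH-SY5Y). The limit cut through a continuous range. The line with the highest cover was LA-N-2 in 104 windows, IMR-32 in 96, N206 in 35, SH-SY5Y in 22, CHP-902R in 17, CLB-GA in 17, SJNB-1 in 6 and SK-N-AS in 3. An MNA line led in 252 windows and a single copy line in 48. The median cover of the 300 windows was 7.32% in IMR-32, 7.89% in LA-N-2, 6.22% in N206, 5.33% in CHP-902R, 6.28% in SH-SY5Y, 5.05% in SK-N-AS, 4.89% in CLB-GA and 4.73% in SJNB-1. These medians were 4.005 to 6.34 times the line's median over all windows, and the 300 windows held 6.38% to 8.70% of a line's peak length.

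**Figure D1:**
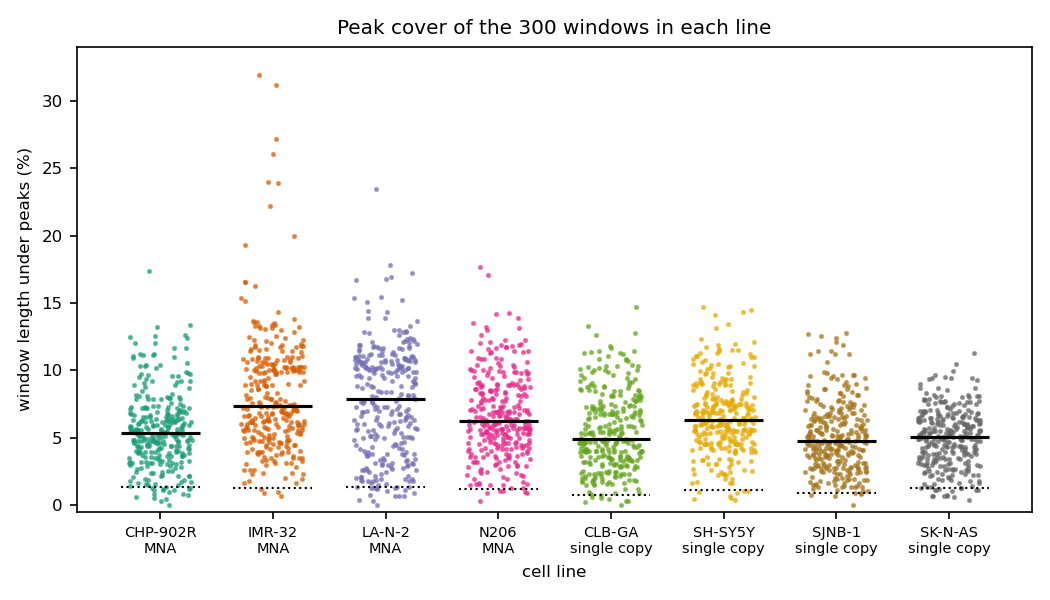
Peak cover (y axis, percent of window length under peaks) of the 300 windows in each of the 8 lines (x axis). Each point is 1 window, the solid bar is the median of the 300 windows and the dotted bar the line's median over all 14404 windows; the points above 18% belong to IMR-32 and LA-N-2.

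The 10 windows with more than 18% cover were each led by 1 line, at 4.22 to 28.7 times the next line. IMR-32 led in 9 of them, all on 2p, and LA-N-2 in 1 on 1q. In all, 50 of the 300 windows (16.7%) had a top line at 2 times the next line or more, beside 7.24% of the 12497 windows with a mean cover of at least 0.25%. The ranking used these values, and nothing is read from the difference. Of the 50, IMR-32 led in 30, LA-N-2 in 18, CHP-902R in 1, N206 in 1 and the single copy lines in 0.

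**Figure D2:**
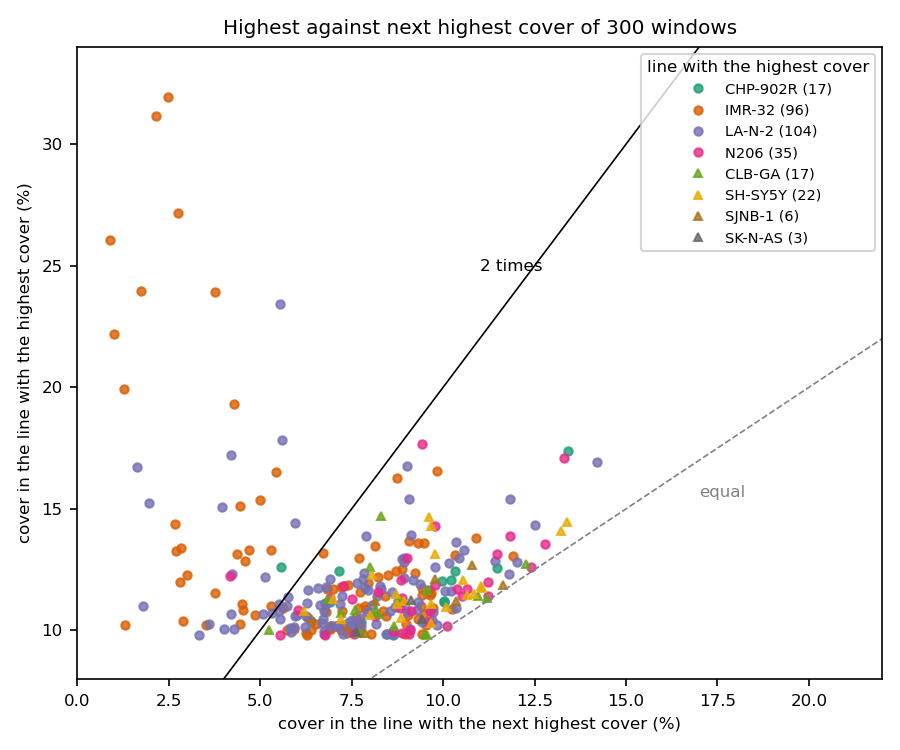
Peak cover in the line with the highest cover (y axis, percent) against that in the line with the next highest cover (x axis, percent) for the 300 windows, coloured by the top line. The dashed line marks equal cover and the solid line 2 times the next line; 50 windows lie on or above the solid line, 48 of them led by IMR-32 or LA-N-2.

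The first window was chr2:66800001-67000000, which begins at the end of MEIS1. MEIS1 encodes a homeobox transcription factor that acts with HOX proteins. The window's cover was 31.95% in IMR-32, 2.47% in LA-N-2, 2.21% in N206, 2.12% in CHP-902R, 1.65% in SH-SY5Y, 1.11% in SK-N-AS, 1.52% in CLB-GA and 1.83% in SJNB-1. IMR-32 stood apart from all other lines, which lay within a narrow range. IMR-32 had 47 peaks in this window and the other lines 4 to 7. The window chr2:67000001-67200000, for which no protein-coding gene was found, had 26.1% in IMR-32 and 0.907% in the next line, a ratio of 28.7 that was the highest of the 50.

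To find the borders of such DNA, cover was recomputed in bins of 20 kb, and bins with at least 10% cover in the top line were joined over gaps of at most 2 bins. This step was chosen after seeing the data. Of 29 stretches found around the 50 windows, 7 were at least 200 kb long and had at least 4 times the cover of the next line, and they held 18 of the 50 windows. A stretch of 140 kb on 11q with 4.43 times the next line was too short, and the highest ratio among the longer stretches left out was 3.48. Of the 7, 5 belonged to IMR-32 and 2 to LA-N-2, and 6 lay on 2p.

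The longest stretch ran from 66.72 to 67.70 Mb of chromosome 2, over 980 kb. It held 57.7% of MEIS1 and the whole of ETAA1, which encodes a protein of the replication stress response. Cover was 24.4% in IMR-32, 1.24% in LA-N-2, 1.196% in N206, 1.18% in CHP-902R, 0.822% in SH-SY5Y, 0.967% in SK-N-AS, 0.841% in CLB-GA and 0.905% in SJNB-1. IMR-32 was 19.8 times the next line, and no other line stood out. In the 200 kb before and after the stretch, cover of IMR-32 was 1.11% and 2.14%. Of the peak length of IMR-32 in the stretch, 90.0% lay outside protein-coding genes, beside 90.2% of the stretch itself.

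The ALK stretch, 29.68 to 29.94 Mb, lay wholly inside the gene. ALK encodes a receptor tyrosine kinase of the developing nervous system. Cover was 32.4% in IMR-32, 1.77% in LA-N-2, 3.87% in N206, 1.24% in CHP-902R, 1.88% in SH-SY5Y, 1.31% in SK-N-AS, 1.53% in CLB-GA and 0.776% in SJNB-1. IMR-32 was alone at 8.36 times N206. Its cover in the flanks of 200 kb was 1.55% and 1.37%. The stretch took up 35.7% of the gene, and 99.6% of the peak length of IMR-32 in it was intronic, beside 99.9% of the stretch itself.

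Between 69.12 and 69.40 Mb, IMR-32 was dense over GKN2 and GKN1, which encode secreted gastric proteins, and over 67.6% of ANTXR1, which encodes an anthrax toxin receptor. Cover was 30.8% in IMR-32, 2.04% in LA-N-2, 1.73% in N206, 1.54% in CHP-902R, 0.854% in SH-SY5Y, 1.24% in SK-N-AS, 0.740% in CLB-GA and 1.202% in SJNB-1. IMR-32 alone was high, at 15.1 times the next line, and its flanks had 1.65% and 1.35%.

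The stretch from 53.40 to 53.60 Mb held no protein-coding gene. Cover was 24.0% in IMR-32, 1.75% in LA-N-2, 1.57% in N206, 1.48% in CHP-902R, 0.923% in SH-SY5Y, 1.38% in SK-N-AS, 0.201% in CLB-GA and 1.42% in SJNB-1. Again IMR-32 alone was high, at 13.7 times the next line. The 200 kb before it had 0% cover in IMR-32 and the 200 kb after it 1.16%.

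The last IMR-32 stretch on 2p adjoined the removed windows around MYCN. From 14.74 Mb to the border of the kept windows at 15 Mb, cover was 27.2% in IMR-32, 2.40% in LA-N-2, 2.24% in N206, 1.24% in CHP-902R, 1.85% in SH-SY5Y, 0.513% in SK-N-AS, 1.47% in CLB-GA and 1.98% in SJNB-1. IMR-32 was 11.3 times the next line, and the other MNA lines were not dense there. The stretch held LRATD1 as its only protein-coding gene. The 200 kb on its left had 0.441% cover in IMR-32, and its right side was not analysed here.

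LA-N-2 had such stretches at 2 other places. On 2p, from 18.26 to 18.94 Mb, cover was 0.732% in IMR-32, 14.5% in LA-N-2, 0.961% in N206, 0.649% in CHP-902R, 1.57% in SH-SY5Y, 0.819% in SK-N-AS, 0.520% in CLB-GA and 1.06% in SJNB-1. LA-N-2 was alone at 9.27 times SH-SY5Y. This stretch held 58.5% of KCNS3, which encodes a modulatory subunit of voltage-gated potassium channels, and all of RDH14, a retinol dehydrogenase gene, and NT5C1B, a cytosolic nucleotidase gene.

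On 1q, from 162.22 to 162.90 Mb, cover was 4.17% in IMR-32, 18.1% in LA-N-2, 3.91% in N206, 1.65% in CHP-902R, 4.20% in SH-SY5Y, 3.14% in SK-N-AS, 1.56% in CLB-GA and 2.73% in SJNB-1. LA-N-2 was again the dense line, but the other lines were less sparse and the ratio was 4.30. The stretch held 40.0% of NOS1AP, which encodes an adaptor of neuronal nitric oxide synthase, and all of UHMK1, UAP1, HSD17B7 and DDR2, a collagen receptor tyrosine kinase gene. Its window chr1:162400001-162600000 had 56 peaks in LA-N-2 and 7 to 20 in the other lines. Cover of LA-N-2 in the flanks was 3.03% and 4.94%.

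**Figure D3:**
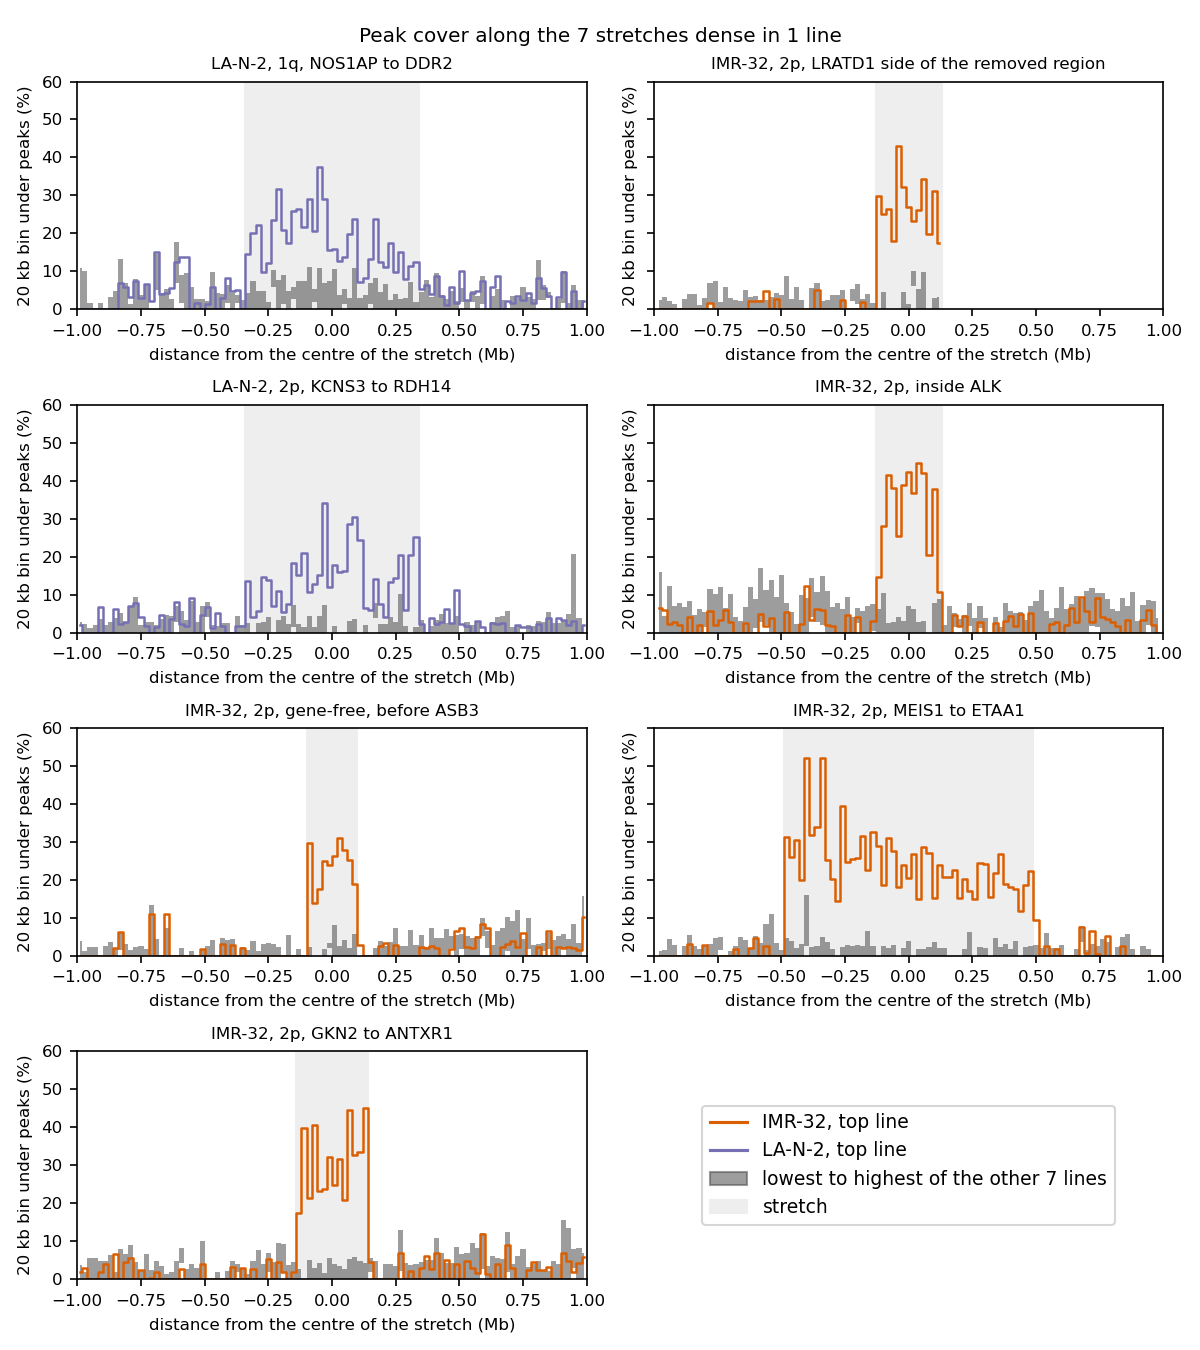
Peak cover in bins of 20 kb (y axis, percent) around each of the 7 stretches (x axis, Mb from its centre), for the top line (coloured) and as the range of the other 7 lines (dark band); light grey marks the stretch. Most dense bins of the top line lie inside the stretch, but some bins outside reach 10% or more, up to 12.2% in the IMR-32 panels and 15.2% in the LA-N-2 panel on 1q, and the panel next to the removed MYCN windows ends at the border of the kept windows.

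The peaks in these stretches are described beside the rest of the line's peaks. The stretches were selected on high cover in 1 line and low cover in the others, which favours wide peaks and peaks that meet no other line, so these values are a description with no test. The median IMR-32 peak held 0.972 to 1.12 CpG per 100 bp in the 5 stretches, against 2.54 to 2.55 among the line's other peaks. Its width was 832 to 1226 bp, against 548 bp, and its score, which the peak caller derives from the p-value of the peak, was 158 to 291, against 71.2. In LA-N-2 the median peak held 1.397 CpG per 100 bp on 2p and 1.67 on 1q, against 2.68 elsewhere. Its width was 599 and 583 bp, against 457 bp, and its score 212 and 143, against 75.4. Of the IMR-32 peaks, 25.8% met a peak of any other line in the MEIS1 to ETAA1 stretch, 26.2% to 37.3% in 3 others and 62.3% in ALK, against 71.4% elsewhere. In LA-N-2 this share was 29.3% on 2p and 61.5% on 1q, against 69.4% elsewhere. With peaks of score 100 or more alone, a setting added after seeing the data, cover of the 7 stretches was 12.1% to 26.0% in the top line and 0.400% to 1.46% in the next.

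**Figure D4:**
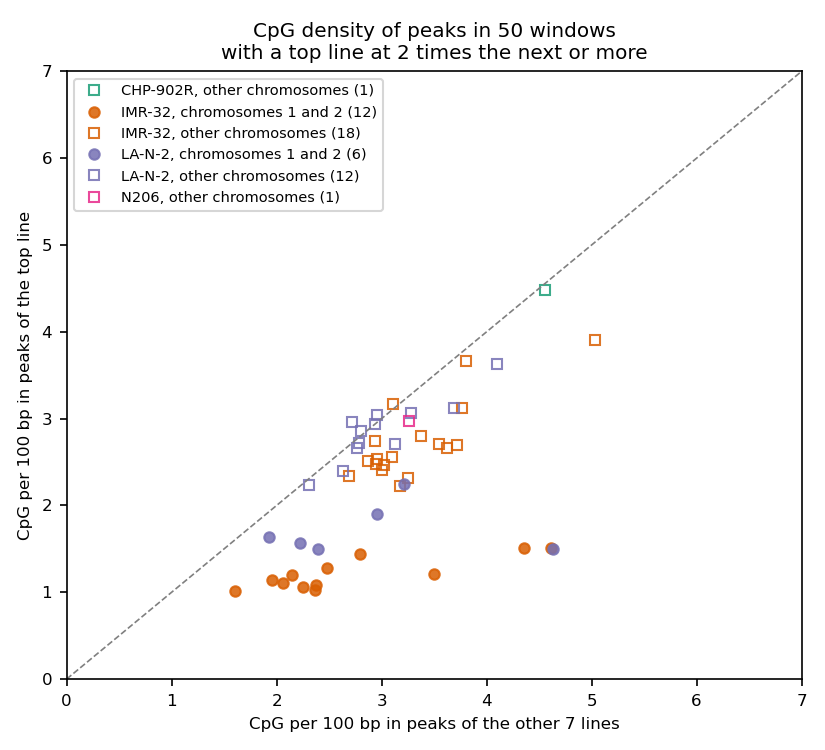
CpG per 100 bp in the peaks of the top line (y axis) against the peaks of the other 7 lines (x axis) for the 50 windows led by 1 line. The 18 windows of the 7 stretches lie at 1.01 to 2.25 on the y axis, all under the line of equality. The other 32 windows lie at 2.23 to 4.48, most of them also under that line.

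In 46 of the 50 windows the top line's peaks had a lower CpG density than the peaks of the other lines, among them all 18 windows of the stretches. Of the 300 windows, 15 lay under the median CpG density of all windows (0.840 per 100 bp), and all 15 were windows of the stretches. The other 3 windows of the stretches lay above it, 2 on 1q at 0.851 and 1.10 and 1 at MEIS1 at 0.997. The share of 45-base positions that occur once in the genome was 84.8% to 97.4% in the 18 windows, beside a median of 93.7% over all windows.

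In the other 32 windows led by 1 line, the top line's peaks had a median CpG density of 2.72 per 100 bp and a median score of 76.1, against 1.36 and 196 in the 18. Most of the 32 also had a lower CpG density in these peaks than in the peaks of the other lines, whose median was 3.10. IMR-32 led 10 windows on 11q between 76.0 and 78.4 Mb, with 10.2% to 13.3% cover at 2.19 to 4.08 times the next line. The window over ACER3, an alkaline ceramidase gene, and CAPN5, a calpain protease gene, had 12.3% in IMR-32, 1.93% in LA-N-2, 2.43% in N206, 2.80% in CHP-902R, 2.61% in SH-SY5Y, 1.35% in SK-N-AS, 3.01% in CLB-GA and 2.31% in SJNB-1. IMR-32 was high and the other lines were close to each other. Neighbouring windows held EMSY, MYO7A, which encodes an unconventional myosin of the inner ear, RSF1, which encodes a chromatin remodelling factor, and GAB2, which encodes a signalling adaptor. The 7 stretches on 11q lay close to each other, and in the 200 kb before the first and after the last of them cover of IMR-32 was 5.68% and 8.80%.

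At the end of 19q, IMR-32 led 6 adjacent windows from 57.6 to 58.8 Mb. This DNA holds many zinc finger genes, whose products often bind DNA and repress transcription. The window with ZNF547, ZNF17 and ZNF772 had 14.4% in IMR-32, 2.67% in LA-N-2, 2.15% in N206, 0.615% in CHP-902R, 2.23% in SH-SY5Y, 2.25% in SK-N-AS, 2.47% in CLB-GA and 1.98% in SJNB-1. IMR-32 was high and CHP-902R low, while the other 6 lines were close to each other. The whole stretch from 57.60 to 59.10 Mb had 15.1% cover in IMR-32 and 4.37% in SH-SY5Y, the next line, and 1.10% in IMR-32 in the 200 kb on its left. Its median IMR-32 peak held 2.46 CpG per 100 bp, near the line's 2.54.

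LA-N-2 led 10 windows on 5p with 9.83% to 17.8% cover at 2.01 to 3.19 times the next line. The highest, chr5:32000001-32200000, holds PDZD2, a PDZ domain protein gene, and GOLPH3, a Golgi phosphoprotein gene. Its cover was 4.46% in IMR-32, 17.8% in LA-N-2, 1.90% in N206, 4.87% in CHP-902R, 5.60% in SH-SY5Y, 2.78% in SK-N-AS, 3.52% in CLB-GA and 1.71% in SJNB-1. LA-N-2 lay above all other lines. Further windows of this arm covered TRIO, which encodes a guanine nucleotide exchange factor, SRD5A1, a steroid reductase gene, NUP155, a nuclear pore gene, and ANKH. The single window of CHP-902R was on 19p (12.6%), and that of N206 at SYNGR1 and PDGFB on 22q (12.2%, beside 0.374% in SH-SY5Y, the lowest line).

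The remaining 250 windows were shared between lines to varying degrees. A line was said to rank a window highly if the window was in the line's own top 5% of all windows. By this measure the 250 windows were ranked highly by a median of 5.5 lines and the 50 by a median of 1. Of all 300 windows, 25 were ranked highly by 8 lines, 45 by 7, 55 by 6, 49 by 5, 37 by 4, 22 by 3, 21 by 2 and 46 by 1.

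The window with the highest minimum over the lines was chr5:140200001-140400000, the protocadherin alpha cluster, whose tandem first exons encode neuronal cell adhesion proteins. Its cover was 9.76% in IMR-32, 11.2% in LA-N-2, 8.87% in N206, 9.61% in CHP-902R, 9.02% in SH-SY5Y, 9.46% in SK-N-AS, 11.3% in CLB-GA and 9.60% in SJNB-1. All lines were within a narrow range and the groups overlapped. Peaks of all 8 lines shared 13 intervals of this window.

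The window chr7:600001-800000 at PRKAR1B, which encodes a regulatory subunit of protein kinase A, had 7.26% to 14.3%, and chr19:12800001-13000000 at HOOK2 and MAST1 had 6.93% to 11.2%. No line was low in either window.

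The 15 windows of highest cover also held shared ones. The window chr20:62600001-62800000 holds MYT1, a zinc finger factor gene of neural differentiation, and had 8.32% in IMR-32, 6.53% in LA-N-2, 17.7% in N206, 5.35% in CHP-902R, 8.93% in SH-SY5Y, 6.43% in SK-N-AS, 9.42% in CLB-GA and 8.36% in SJNB-1. N206 was the highest line and the others overlapped between the groups. The window chr17:80800001-81000000 holds TBCD, a tubulin chaperone gene, and B3GNTL1, and had 7.85% in IMR-32, 10.8% in LA-N-2, 8.43% in N206, 17.4% in CHP-902R, 13.4% in SH-SY5Y, 5.53% in SK-N-AS, 7.38% in CLB-GA and 9.15% in SJNB-1. All 8 lines ranked it highly, and CHP-902R and SH-SY5Y led.

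Properties that the ranking did not use differed between the windows and the genome as a whole. The median CpG density was 1.94 per 100 bp in the 250 remaining windows, 1.15 in the 50 led by 1 line and 0.840 over all windows. The median GC content was 50.2%, 43.0% and 40.0%, in that order. Within 2 Mb of a chromosome end lay 71 of the 300 windows (23.7%) and 3.36% of all windows. A protein-coding transcription start lay in 255 of the 300 (85%) and in 50.6% of all. Of the peak length in the 250 windows, 16.7% to 20.5% per line was exonic, against 8.04% to 12.1% over all windows, while exons made up 8.50% of the length of the 250 windows and 2.77% of all windows. Windows are not replicates, and these are descriptions with no test.

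The windows were uneven over the chromosome arms. The 1q arm held 57 (8.91% of its windows), 17q held 53 (17.97%), 2p 25, 11q 20 and 12q 17, while chromosomes 6 and 18 held 0. LA-N-2 led 48 of the 57 windows of 1q and 11 of 13 on 5p. IMR-32 led 36 of 53 on 17q, 20 of 20 on 11q and 8 of 10 on 19q. N206 led 9 of 13 on 20q and 6 of 8 on 22q. Of the 17 on 12q, LA-N-2 led 9 and CLB-GA 7.

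**Figure D5:**
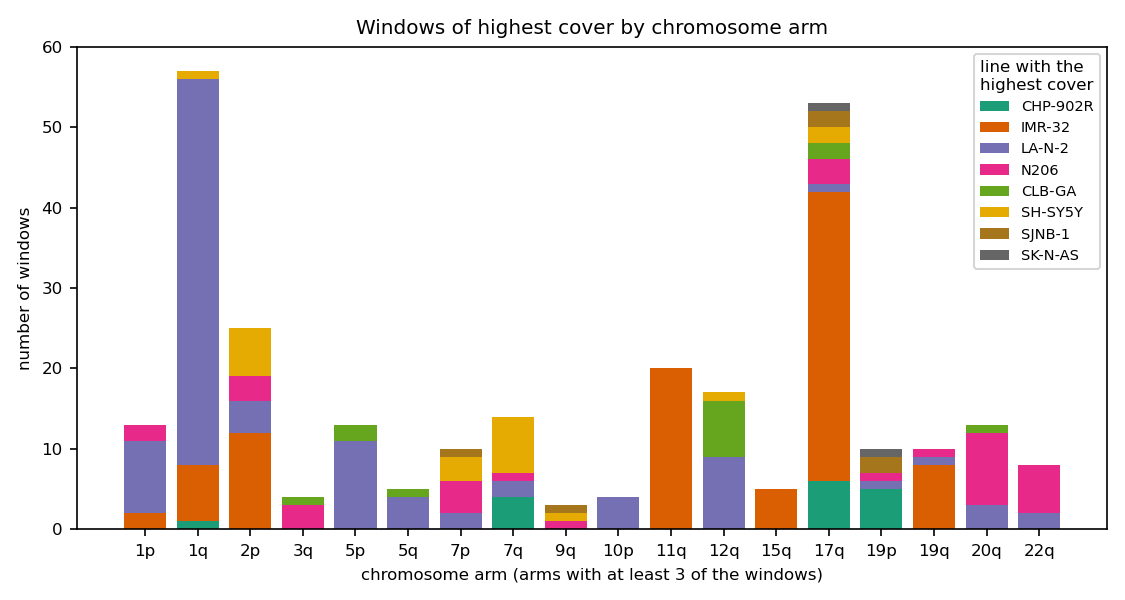
Number of the 300 windows (y axis) on the chromosome arms (x axis), coloured by the line with the highest cover. LA-N-2 takes 48 of the 57 windows on 1q, and IMR-32 takes 36 of the 53 on 17q and all 20 on 11q.

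The mean cover of a whole arm, divided by the line's mean over all windows, moved with some of these counts. On 1q this relative cover was 2.02 in LA-N-2 and 0.861 to 1.66 in the other lines, and on 5p it was 1.53 in LA-N-2 and 0.517 to 0.892 elsewhere. On 17q it was 2.86 in IMR-32, 1.62 in LA-N-2 and 2.24 to 2.58 in the other lines, and on 22q it was 2.95 in N206 and 1.33 to 2.38 elsewhere. On 11q IMR-32 had 1.10 and CHP-902R 1.13, on 19q IMR-32 had 1.78 and SJNB-1 1.89, and on 20q N206 had 2.03 and CLB-GA 2.34. On these arms the line that led most windows did not have the highest relative cover. Windows were led by cover itself, which also moves with the line's mean over all windows. That mean was 1.96% in IMR-32, 1.79% in N206 and CHP-902R, 1.38% in CLB-GA and 1.37% in SJNB-1. Whether gain of whole arms contributes to these values was not tested.

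Adjacent windows were often kept together: the 300 windows formed 183 runs, of which 126 were a single window. The longest run, 10 windows from 155.0 to 157.0 Mb of chromosome 1, was led by IMR-32 and LA-N-2, and in 0 of its windows did 1 line reach 2 times the next. IMR-32 led a run of 8 windows at 41.8 to 43.4 Mb of chromosome 17, and 6 windows at 79.2 to 80.4 Mb of the same arm were each led by a different line.

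The MNA and single copy lines were compared in every window with limma on log2(percent cover + 1), centred on each line's median. Among the 300 windows, 0 were called higher and 0 lower in MNA lines, beside 0.008% of the 12497 tested windows called higher and 0% lower. The smallest adjusted p of the 300 was 0.996 by limma, and 12 of them had an unadjusted p under 0.05, 2 higher and 10 lower in MNA lines, beside 3.42% of all tested windows. These same cover values ranked the windows, and ranking by the maximum favours windows with 1 high line, which widens the spread within its group. Nothing is read from these counts about the 300. The 1 window called, chr18:18800001-19000000, ranked 3808 and was not among the 300. It had 3.06% to 4.29% cover in the MNA lines and 0% to 0.233% in the single copy lines (log2 difference 1.96, SE 0.28, adjusted p = 0.0203 by limma), and it was lost when any 1 line was left out. In simulated data over 12268 windows, the same test recovered 86 of 100 differences of 2 on the log2 scale. Of 100 differences of 1 it recovered 13. There were 2 false calls, which is more than the 1 call in the real data. The differences were planted only in windows of higher mean cover and were equal in all MNA lines. Noise was drawn independently for each line and window. Recovery in sparser windows, or in windows picked by their maximum as the 300 were, is therefore not known.

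The groups did not overlap in 17 of the 300 windows with higher values in MNA lines (5.67%, beside 3.57% of all tested windows). With lower values in MNA lines there were 0 such windows (beside 0.176%). The ranking used these values and an MNA line led in 252 of the 300 windows, so nothing is read from these shares. Of the 17, 6 were among the 50 windows led by 1 line. Of the 300, the window with the smallest limma p among these 17 was chr17:40800001-41000000, named after its values were seen. Its cover was 11.5% in IMR-32, 6.75% in LA-N-2, 8.31% in N206, 9.67% in CHP-902R, 5.63% in SH-SY5Y, 3.89% in SK-N-AS, 4.61% in CLB-GA and 3.35% in SJNB-1. All MNA lines lay above the single copy lines, but the log2 difference of 0.70 (SE 0.27) was not called (adjusted p = 0.996 by limma).

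The smallest limma p among the 300 belonged to chr2:3000001-3200000, also named after its values were seen. Cover was 4.78% in IMR-32, 6.05% in LA-N-2, 6.35% in N206, 5.41% in CHP-902R, 11.8% in SH-SY5Y, 6.27% in SK-N-AS, 11.04% in CLB-GA and 7.10% in SJNB-1. CLB-GA and SH-SY5Y were high and SK-N-AS lay inside the range of the MNA lines. The log2 difference between MNA and single copy lines was -0.76 (SE 0.27), with an adjusted p of 0.996 by limma.

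Gene lists written with earlier results of these data known were set against the windows. Of all 19229 autosomal protein-coding genes, 1426 (7.42%) met 1 or more of the 300 windows. Of 17 genes known for amplification or copy number change in NB and other tumours, 3 lay in the removed windows and 5 of the other 14 met a window: MEIS1, ALK, CCND1, FGF19 and FGF4. The genes CCND1, FGF19 and FGF4 share 1 window, so they are not independent. CCND1 encodes cyclin D1, which drives entry into S phase, and its window with the growth factor genes FGF19 and FGF4 had 11.7% in IMR-32, 1.80% in LA-N-2, 3.38% in N206, 4.36% in CHP-902R, 6.83% in SH-SY5Y, 2.25% in SK-N-AS, 4.94% in CLB-GA and 2.46% in SJNB-1. IMR-32 led at less than 2 times SH-SY5Y. The best windows of TERT (rank 524), CDK4 (rank 814), LIN28B (rank 5185) and MDM2 (rank 7478) were not among the 300.

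Of 20 large genes near chromosome ends, 9 met a window. PTPRN2, which encodes a phosphatase-like protein of secretory vesicles, met 4, and its highest had 4.58% in IMR-32, 3.36% in LA-N-2, 7.38% in N206, 13.4% in CHP-902R, 14.5% in SH-SY5Y, 4.36% in SK-N-AS, 7.69% in CLB-GA and 4.19% in SJNB-1. SH-SY5Y and CHP-902R, from different groups, were high. DIP2C met 3, and INPP5A, an inositol phosphatase gene, met 2, the higher of which had 2.30% in IMR-32, 15.4% in LA-N-2, 3.80% in N206, 3.33% in CHP-902R, 8.84% in SH-SY5Y, 4.65% in SK-N-AS, 9.07% in CLB-GA and 2.67% in SJNB-1. LA-N-2 led, followed by the single copy lines CLB-GA and SH-SY5Y.

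Of 53 clustered protocadherin genes, 39 met 1 or more of 3 windows on 5q, and since neighbours share a window they are not independent. The window chr5:140600001-140800000 with gamma genes had 9.94% in IMR-32, 12.8% in LA-N-2, 10.1% in N206, 11.01% in CHP-902R, 10.9% in SH-SY5Y, 6.79% in SK-N-AS, 11.4% in CLB-GA and 10.7% in SJNB-1. SK-N-AS was the lowest line, and the others were close to each other. Of 21 imprinted genes, 1 met a window: GNAS, which encodes a G protein subunit and is expressed from a single parental allele in some tissues. Its window had 6.59% in IMR-32, 11.6% in LA-N-2, 10.2% in N206, 4.64% in CHP-902R, 3.28% in SH-SY5Y, 5.90% in SK-N-AS, 8.06% in CLB-GA and 6.78% in SJNB-1. LA-N-2 was the highest line. Of 39 HOX genes, 0 met a window, and the highest HOX window, led by IMR-32, ranked 897. The 39 genes lay in only 8 windows, so they are not independent either.

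Windows in which the lowest line had at most 1 part in 3 of the cover of the next lowest were counted as well, by a rule chosen after seeing the data. Of the 300 windows, 18 met it, beside 38% of all tested windows, where cover is lower and such ratios are common. The lowest line was CHP-902R in 6, LA-N-2 in 6, CLB-GA in 3, SH-SY5Y in 2 and SJNB-1 in 1. These include windows led by 1 line in which all other lines were sparse, and 1 of them, chr2:18800001-19000000, where CHP-902R and CLB-GA were both at 0% and which was counted under CHP-902R.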

How the data were processed

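DNA of 8 NB cell lines, 1 sample each, was sheared, captured with the MBD2 domain (MethylCollector) and sequenced as paired-end reads of 2 × 45 bases. The authors used Bowtie 0.12.7 to map the reads on GRCh37, and MACS for the peaks, line by line. The deposited lists give each peak's position and a score, which the authors took from MACS and which rises as the p-value falls, with a lowest value of 50. An input control and the options of the peak calling are not given in the sources used here. The lists hold no read counts, and the study gives depth only as a range over the lines, so the depth of each line is not known here; list lengths were 70816 to 112412 peaks.

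Peak cover, CpG and GC content and uniqueness of 45-base positions were computed from the lists and the GRCh37 sequence with Python 3.11.15, numpy 2.4.6, pandas 2.3.3 and numba 0.67.0, and figures were drawn with matplotlib 3.10.9. Genes came from GENCODE release 44 in GRCh37 coordinates. MNA and single copy lines (4 against 4, by the labels) were compared with limma 3.58.1 in R 4.3.3 on log2(percent cover + 1), over windows with a mean cover of at least 0.25%, with Benjamini-Hochberg adjustment over all of them and a threshold of 0.05. The test was tested on simulated data. The study tested counts of sequence tags, which were not used here. The windows, gene lists and alternatives were chosen with earlier results of these data known, and the joining of dense bins into stretches and the count of windows low in 1 line after seeing the data. The windows named are the 15 with the highest maximum, the 5 with the highest minimum, windows led by 1 line at 2 times the next line, those at the limit and those met by the gene lists, with up to 3 genes by overlap with peaks of the top line. The alternatives were another pseudocount, no filter, no centring, peaks with a score of at least 100, lists of equal length, non-overlapping groups, a grid shifted by 100 kb, cover per known base or per line total, a ratio of 1.5 and each line left out in turn. Some items that this rule names are not reported here.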

Additional observations from a re-analysis of the deposited data

Results flagged for a closer look

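For 126 sets of 4 lines, each the values of a MYCN group in a named window, the gap between the highest or lowest line and its nearest neighbour was divided by the range of the 4 lines. In 33 sets this share was past the 95% limit of Dixon's test, which chance passes in about 1 of 20 sets. The windows were ranked and named by these same values, many of them for 1 high line. An outlying line was thus favoured in advance, and the rate of 1 in 20 does not apply. The shares below are a description, and nothing is read from their number.

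On chromosome 2, IMR-32 stood apart from the other MNA lines by a share of 0.988 in the window from 66.8 Mb, 0.993 from 67 Mb, 0.971 from 67.2 Mb, 0.977 from 67.4 Mb and 0.942 from 67.6 Mb. It did so by 0.980 from 69.0 Mb, 0.992 from 69.2 Mb, 0.955 from 14.8 Mb, 0.988 from 53.4 Mb, 0.831 from 29.6 Mb and 0.900 from 29.8 Mb. On chromosome 11 its share was 0.916 from 76.6 Mb, 0.861 from 77.6 Mb and 0.901 from 77.8 Mb. On chromosome 19 it was 0.878 from 57.6 Mb, 0.851 from 57.8 Mb, 0.834 from 58.0 Mb, 0.865 from 58.2 Mb and 0.874 from 58.4 Mb.

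LA-N-2 stood apart from the other MNA lines on chromosome 2 by 0.961 from 18.4 Mb, 0.991 from 18.6 Mb and 0.943 from 18.8 Mb. On chromosome 1 its share was 0.863 from 162.2 Mb, and on chromosome 10 it was 0.841 from 0.2 Mb. On chromosome 5 it was 0.919 from 10.6 Mb, 0.881 from 14.4 Mb, 0.846 from 14.8 Mb, 0.840 from 31.8 Mb and 0.908 from 37.2 Mb.

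N206 stood apart by 0.830 in the SYNGR1 and PDGFB window of chromosome 22 and by 0.855 in 1 further window. Among the single copy lines, SH-SY5Y was highest by 0.907 in the ALK window from 29.6 Mb, with 3.01% cover, and by 0.883 in the HOOK2 and MAST1 window, with 8.20%.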

How the results depend on the processing

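The count of all windows with more cover in MNA lines, 1 as reported, was 0 without the filter on low cover, 0 with a score of at least 100, 0 to 0 when each line was left out in turn, and 446 when non-overlapping groups were counted. The count with less cover in MNA lines, 0 as reported, was 22 by non-overlap, and among the 300 windows the count with more cover, 0 as reported, was 17 by non-overlap. The other pseudocount, no centring and lists of equal length left these counts as they were. With a score of at least 100, 154 of the 300 windows stayed in the top 300. Under the other settings 213 to 292 stayed, and 217 to 297 when 1 line was left out, with 217 without LA-N-2 and 221 without IMR-32. The count of windows led by 1 line, 50 as reported, was 133 with a score of at least 100, 33 with cover divided by the line's total and 119 with a ratio of 1.5, and 36 to 55 when 1 line was left out. Of the 50 as reported, 37 were still led by 1 line with a score of at least 100, 39 with lists of equal length and 29 with cover divided by the line's total. Of the 18 among them in the 7 stretches, these were 18, 18 and 16. The causes of these changes were not tested. No paired analysis was possible because the lines of the groups are different cultures and the labels give no replicate numbers. Depth per line is not known, so a missing peak does not show that methylation is absent.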

Other observations

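Of the 6 windows in which LA-N-2 had at most 1 part in 3 of the cover of the next lowest line, 4 lay on 17q. They were named after their values were seen. The window over SDK2, a neuronal cell adhesion gene, had 13.5% in IMR-32, 0% in LA-N-2, 6.13% in N206, 5.67% in CHP-902R, 7.86% in SH-SY5Y, 8.14% in SK-N-AS, 3.99% in CLB-GA and 7.33% in SJNB-1. LA-N-2 had no peak there while every other line was covered. The window over CRHR1, a stress hormone receptor gene, and MAPT, which encodes the microtubule protein tau, had 13.7% in IMR-32, 0.639% in LA-N-2, 8.24% in N206, 6.21% in CHP-902R, 9.07% in SH-SY5Y, 6.49% in SK-N-AS, 3.64% in CLB-GA and 5.58% in SJNB-1. LA-N-2 was the lowest line and IMR-32 the highest.

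The 1p window over GLIS1, a zinc finger factor gene, had 11.9% in IMR-32, 7.41% in LA-N-2, 6.30% in N206, 0.809% in CHP-902R, 6.35% in SH-SY5Y, 2.64% in SK-N-AS, 5.84% in CLB-GA and 4.69% in SJNB-1. The 22q window over PLXNB2, a semaphorin receptor gene, had 8.86% in IMR-32, 7.37% in LA-N-2, 12.1% in N206, 1.12% in CHP-902R, 7.45% in SH-SY5Y, 4.74% in SK-N-AS, 6.52% in CLB-GA and 7.81% in SJNB-1. CHP-902R was below all other lines in each. Over the whole of 1p the relative cover of CHP-902R was 0.492, against 1.01 to 1.76 in the other lines. Over the whole of 22q it was 1.33, above the line's mean over all windows, against 1.48 to 2.95 in the other lines. Whether loss of DNA contributes to these values was not tested.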
